A study of Mus musculus with 8 samples.

Results

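The messenger RNAs described here encode 10 surface proteins through which microglia and other antigen-presenting cells meet lymphocytes: CD40 (Cd40), the ligands of the B7 family CD80, CD86, PD-L1 and PD-L2 (Cd80, Cd86, Cd274, Pdcd1lg2), CD83 (Cd83), the receptors SLAMF7 and CD2 (Slamf7, Cd2), and the adhesion molecules ICAM-1 and VCAM-1 (Icam1, Vcam1). They were found by gene symbol, through the transcript that each array probe was designed against. Of the 55681 probes that were not controls, 13 belonged to these 10 genes. Tests used probes that stood well above background in 1 or more groups, on both of the group's arrays. By that filter 9 of the 10 genes were tested among 22460 genes in all, and Vcam1 was not.

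RNA came from BV-2, a microglial line of the mouse made immortal by a retrovirus. The groups were cells given LPS and HF together (LPS+HF), LPS alone (LPS), HF alone (HF), or neither (control), 2 arrays each. LPS is bacterial lipopolysaccharide, used at 1 µg/mL, HF is the hexane fraction of the mushroom Amauroderma rugosum, used at 100 µg/mL, and every group was harvested after 24 h. All groups share the same immortalised line and culture medium, and no sample is labelled as primary microglia or as lymphocytes. The design calls the arrays biological duplicates without saying whether they came from separate cultures or days, so p-values measure the spread between these arrays.

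A T cell that recognises antigen needs further signals from the presenting cell. CD80 and CD86 deliver them through CD28 and are countered by CTLA-4, while PD-L1 and PD-L2 dampen the T cell through PD-1. CD40 receives help from the CD40 ligand of activated T cells and raises the other molecules in turn. In macrophages and microglia, LPS acts through Toll-like receptor 4, NF-kappa B and an interferon loop, and several of these genes are classical targets of those factors.

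Levels are the scanner's background-subtracted brightness on a log2 scale, relative to the 75th percentile of all probes on the same array, so 0 is the brightness of that percentile and 1 is double it. They compare arrays within a probe and not one gene with another. The 75th percentile itself lay between 346 and 527 brightness units on the 4 arrays with HF, against 247 to 286 on the 4 without it. Between 47.7% and 55.0% of probes per array were well above background. The arrays lay on 1 slide, those with HF in one row and those with LPS in the same columns of both rows, so position on the slide and treatment cannot be told apart. The scanner's quality report marked HF replicate 1 and control replicate 1. Repeated probes on control replicate 1 had a coefficient of variation of 50.9%, against 6.73% to 9.18% on the other 7 arrays.

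The unevenness of control replicate 1 touched the genes described here directly. Its centre was dimmed, and spots of Cd86, Cd83, Cd2 (1 of the 10 of a second probe) and Vcam1 lay in that area. Before the scanner software's own trend correction, the bright spots around them were dimmed 63.6-fold at Cd86, 19.9-fold at Cd83, 9.57-fold at Cd2 and 5.1-fold at Vcam1. The signals used here are those after that correction, in which the local deviation left on the log2 scale was -1.73, -0.97, -0.43 and 0.11. Each result that involves these spots is therefore given as measured and again after a spatial correction. The correction subtracts the local deviation of each array from the 6 arrays inside the quality range and leaves out spots whose surroundings were dimmed more than 4-fold. For Cd86 and Cd83 it drops control replicate 1, so their corrected control level rests on 1 array. Other spots on control replicate 1 also lay in uneven areas. The local deviation left was 0.64 at Icam1, 0.58 at the tested Cd2 probe, 0.45 at Cd274, -0.28 at Cd40 and -0.22 at the brighter Cd80 probe. Around the tested Cd2 probe the bright spots had been dimmed 2.40-fold, short of the 4-fold limit.

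**Figure D1:**
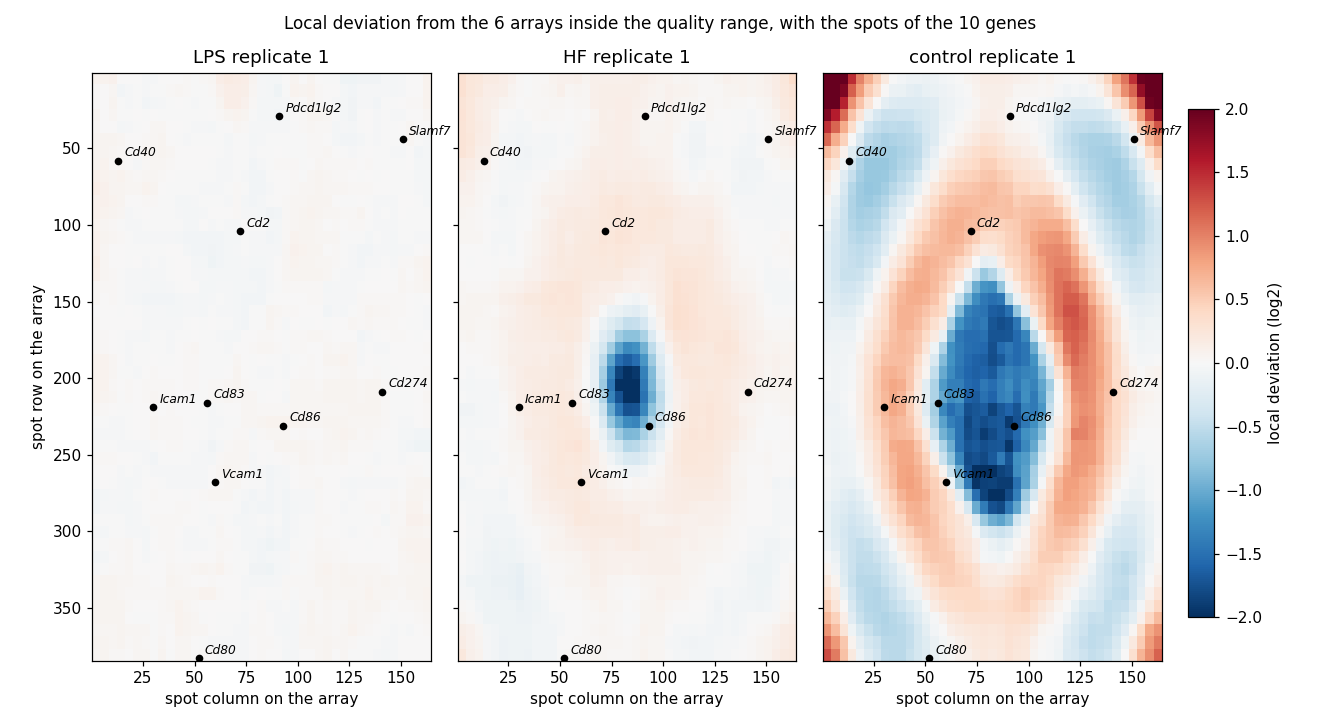
Maps of the local deviation of spot brightness (log2, colour) by spot row and spot column on LPS replicate 1, HF replicate 1 and control replicate 1, with dots at the spots of the 10 genes. LPS replicate 1 is even, HF replicate 1 has a small dim centre (-0.62 at Cd86), and the dim centre of control replicate 1 holds Cd83 (-0.97) and Cd86 (-1.73).

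The 250 bases before the transcription start are shown for 3 genes that were called between LPS+HF and LPS cells, as measured or after the correction: Slamf7 and Cd274, both lower, and Icam1, higher. The sequences are RefSeq's, from GRCm38.p6, each read 5′ to 3′ on the gene's own strand, and capitals mark the matches to motifs of LPS- and interferon-responsive factors.
Slamf7, chr1:171649000-171649249, minus strand: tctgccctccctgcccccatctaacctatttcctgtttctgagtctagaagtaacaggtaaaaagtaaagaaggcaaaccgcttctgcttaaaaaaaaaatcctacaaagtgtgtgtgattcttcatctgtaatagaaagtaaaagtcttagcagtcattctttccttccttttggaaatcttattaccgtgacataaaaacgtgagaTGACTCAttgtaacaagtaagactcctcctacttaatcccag
Cd274, chr19:29367188-29367437, plus strand: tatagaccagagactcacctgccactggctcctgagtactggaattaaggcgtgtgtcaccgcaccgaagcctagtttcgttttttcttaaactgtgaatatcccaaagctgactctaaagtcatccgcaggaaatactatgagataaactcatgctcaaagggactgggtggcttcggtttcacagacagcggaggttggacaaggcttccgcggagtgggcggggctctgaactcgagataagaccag
Icam1, chr9:21015690-21015939, plus strand: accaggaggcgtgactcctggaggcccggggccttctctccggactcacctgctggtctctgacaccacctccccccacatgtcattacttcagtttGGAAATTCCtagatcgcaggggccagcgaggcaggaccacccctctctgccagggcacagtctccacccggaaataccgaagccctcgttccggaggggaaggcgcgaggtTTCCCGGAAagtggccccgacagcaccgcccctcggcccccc

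The motifs searched, on both strands, were the AP-1 site TGANTCA, the STAT site GAS as TTCNNNGAA, the interferon-stimulated response element (ISRE), the kappa B consensus, and the kappa B core GGAAATTCC, which was added after it had been seen in Icam1. Slamf7 held an AP-1 match beginning 42 bases before the start. Icam1 held the kappa B core beginning 153 bases before the start and a GAS match beginning 42 bases before it. For Slamf7 and Cd274 the listed start lies inside the span annotated for the gene. None of these motifs was found in the Cd274 stretch, which says only that these letters are not in this window. Among 32851 stretches of the same length, 6.75% held AP-1, 7.02% GAS, 2.98% ISRE, 7.25% the kappa B consensus and 0.286% the kappa B core. The table held 5 of the 10 genes. Cd80 had an AP-1 match, TGATTCA, and Pdcd1lg2 a kappa B consensus match, GGGGAATCCC. Cd40, Cd86, Cd83, Cd2 and Vcam1 are named only.

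Adding HF to LPS changed 3 of the 9 tested genes in opposite directions. Slamf7 and Cd274 fell, by 23.9-fold and 4.14-fold, and Cd2 rose 1.65-fold, where a gene was called at a Benjamini-Hochberg adjusted p under 0.05 over all genes tested. The Cd2 probe was above background on 1 of the 2 LPS arrays, and a second Cd2 probe, too dim to be tested, differed the other way (-0.43). In this comparison 6.25% of all tested genes were called. Cd40, Cd80, Cd86, Cd83, Pdcd1lg2 and Icam1 were not called. After the spatial correction 5 of the 9 were called, Cd83 and Icam1 being added as higher, where 29.5% of all tested genes were called. Without LPS replicate 1, LPS replicate 2, LPS+HF replicate 1 or LPS+HF replicate 2, none of the 9 was called in this comparison, as for nearly all genes (0% to 0.232% called). Without either HF array Slamf7 alone was, where 1.38% of all genes were called.

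LPS alone moved 4 of the 9 genes relative to control cells: Slamf7, Cd274 and Cd40 rose and Cd2 fell, where 11.1% of all tested genes were called. With the correction Cd83 was also called, as lower, against 29.5% of all genes. HF alone called none of the 9 against control, where 0.882% of all genes were called, and 2 of the 9, Cd2 and Cd274, had an unadjusted p under 0.05, as had 19.7% of all genes. With the correction 3 were called against control, Cd2, Cd40 and Cd86, all lower, where 10.7% of all genes were called. LPS+HF against HF called Cd40 and Slamf7 as higher and Cd2 as lower, 3 of 9 where 1.28% of all genes were called. LPS+HF against control called Cd40 as higher and Cd2 as lower, 2 of 9 where 5.09% of all genes were called. With the correction these became 5 of 9 against HF (5.1% of all genes) and 6 of 9 against control (25.1% of all genes). LPS and HF cells, compared for the order of the levels, differed in 4 of the 9, where 13.9% of all genes were called, and in 6 with the correction, where 35.4% were. Without control replicate 2, which leaves the uneven array as the only control, 7 of the 9 were called in LPS against control (52.7% of all genes), 5 in HF against control (45.3%) and 6 in LPS+HF against control (50.6%).

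The interaction asks whether the response to LPS was the same with and without HF. None of the 9 genes was called, where 0.0534% of all genes were, and 3 of the 9 (Slamf7, Cd2 and Cd274) had an unadjusted p under 0.05, as had 11.6% of all genes. After the spatial correction 4 of the 9 were called, these 3 and Cd83, where 3.66% of all genes were called. Without control replicate 2, 5 were called, where 35.3% of all genes were, and without both marked arrays Slamf7 alone, where 0.151% were. The comparisons share arrays, so their values for a gene are given side by side below and are not independent of each other.

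**Figure D2:**
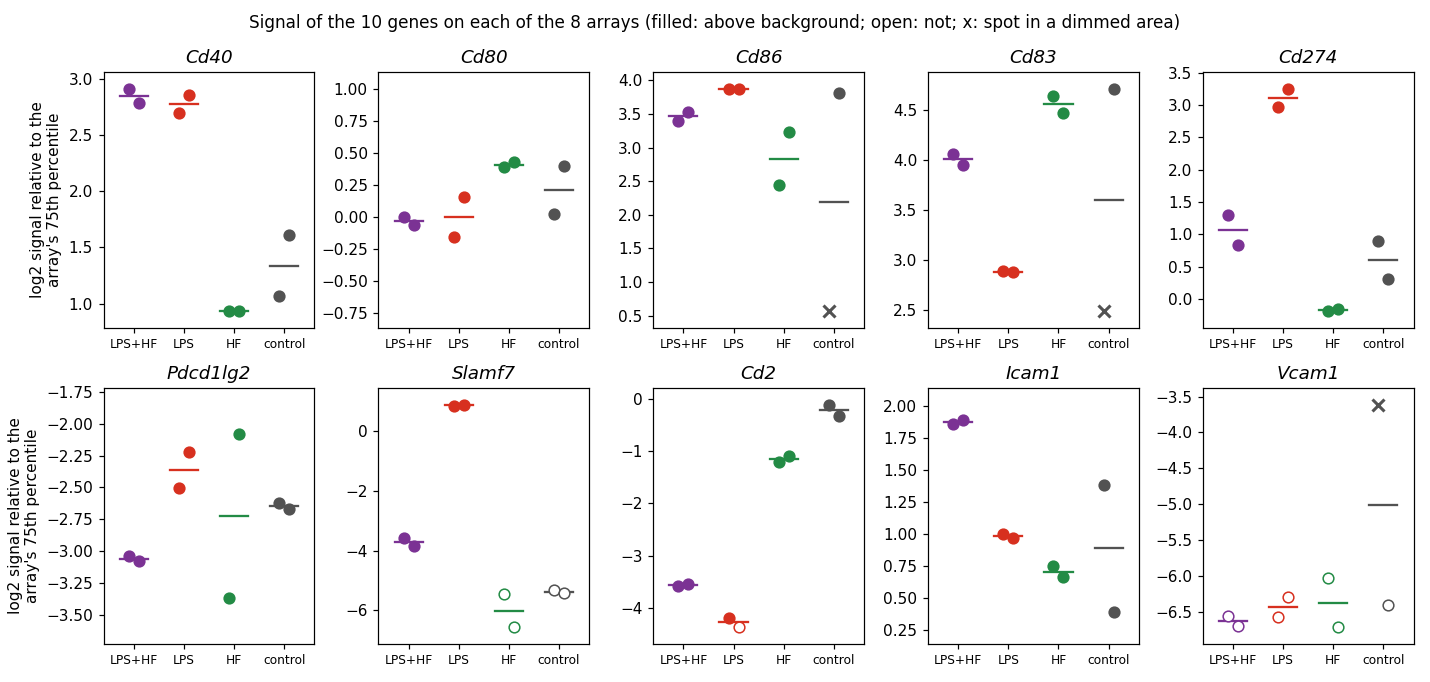
Log2 signal relative to the array's 75th percentile for each of the 10 genes on the 8 arrays, by group, with a bar at the group mean. Filled points are well above background, open points are not, and crosses are spots in the dimmed area of control replicate 1. Slamf7 and Cd274 are highest in LPS cells, Cd2 is highest in control cells, and Cd40 is high in both groups that received LPS.

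Cd40, the receptor that takes CD40 ligand from helper T cells, was high in every array that had received LPS. Its log2 levels were 2.91 and 2.78 in LPS+HF cells, 2.70 and 2.85 in LPS cells, 0.93 and 0.94 in HF cells, and 1.06 and 1.61 in control cells. The LPS+HF and LPS arrays overlapped, and both groups lay above all HF and control arrays. The difference between LPS+HF and LPS cells was 0.07 ± 0.21 (SE, adjusted p = 0.88), with a 95% interval of -0.435 to 0.578. Cd40 rose 2.71-fold in LPS cells relative to control cells (log2 difference 1.44 ± 0.21, adjusted p = 0.013). It rose 3.76-fold in LPS+HF cells relative to HF cells (1.91 ± 0.21, adjusted p = 0.014) and 2.85-fold relative to control cells (1.51 ± 0.21, adjusted p = 0.02).

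HF cells held the lowest Cd40 levels, below both control arrays, at a log2 difference of -0.40 ± 0.21 from control (adjusted p = 0.32). Corrected for the unevenness, this difference was -0.59 ± 0.14 (adjusted p = 0.044). The rise in LPS cells was not called without LPS replicate 1 or without LPS replicate 2 (adjusted p up to 0.11 over the 8 fits that each leave out 1 array). The rises in LPS+HF cells, against HF and against control, were not called when any of the LPS+HF, LPS or HF arrays was left out (adjusted p up to 0.14 and 0.15), and the log2 differences in those fits ran from 1.84 to 1.98 and from 1.44 to 1.58. Background correction by normexp with quantile normalization also ended the calls in LPS cells over control (0.87, adjusted p = 0.095), LPS+HF cells over HF (1.68, adjusted p = 0.064) and LPS+HF cells over control (0.84, adjusted p = 0.15). Among the genes whose levels followed Cd40 most closely over the 8 arrays were Vnn3 (Pearson's r = 0.987) and Aqp3 (0.987).

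Cd80, one of the ligands of CD28, was measured by 2 probes that gave different pictures. The brighter probe read 0.00 and -0.06 in LPS+HF cells, -0.16 and 0.15 in LPS cells, 0.39 and 0.43 in HF cells, and 0.02 and 0.40 in control cells. The 4 groups lay close together, and LPS+HF and LPS cells overlapped (log2 difference -0.03 ± 0.19, 95% interval -0.487 to 0.429, adjusted p = 0.95). The dimmer probe read -2.40 and -2.54 in LPS+HF cells, -3.26 and -3.65 in LPS cells, -3.57 and -3.82 in HF cells, and -3.50 and -3.69 in control cells. On it both LPS+HF arrays stood above all others.

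When each probe was tested on its own, the dimmer Cd80 probe was 1.98-fold higher in LPS+HF than in LPS cells (log2 difference 0.99 ± 0.20, adjusted p = 0.043) and 2.18-fold higher than in control cells (1.12 ± 0.20, adjusted p = 0.041). Against HF cells the difference was 1.23 ± 0.20 (adjusted p = 0.059). The mean of both probes differed between LPS+HF and LPS cells by 0.48 ± 0.13 (adjusted p = 0.083). Both probes were designed against the same RefSeq transcript, and on control replicate 1 the dimmer one was not well above background. No difference of the brighter probe between any groups was called, and the gene's direction under HF with LPS is unsettled. The 3 genes nearest to its brighter probe were Tnfrsf25 (r = 0.927), Fgd4 (0.925) and Sun5 (0.920).

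**Figure D3:**
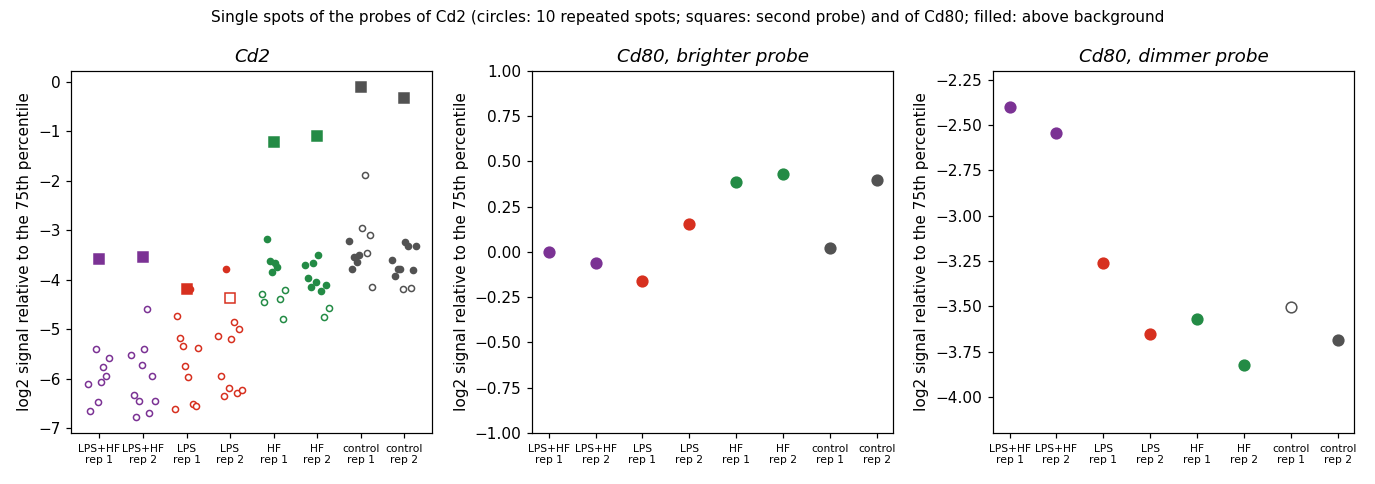
Log2 signal of single spots, per array, for the probes of Cd2 (squares: brighter probe; circles: the 10 repeated spots of the second probe) and for the brighter and dimmer probes of Cd80, with filled marks for spots well above background. On the dimmer Cd80 probe the LPS+HF arrays, at -2.40 and -2.54, are the highest, and on the repeated Cd2 probe most spots of LPS+HF and LPS cells are not above background.

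Cd86, the other ligand of CD28 and usually the more abundant on resting macrophages, read 3.40 and 3.52 in LPS+HF cells and 3.87 and 3.88 in LPS cells. In HF cells it read 2.44 and 3.23, and in control cells 0.57 and 3.81, the lower control value coming from the spot in the dimmed centre and the lower HF value from the array whose small dim centre holds this spot. The LPS+HF arrays lay below both LPS arrays, by 0.41 ± 0.97 (adjusted p = 0.85), an error in which the spread of the control pair is counted. The corrected levels were 3.39 and 3.55 in LPS+HF cells, 3.81 and 3.85 in LPS cells, 3.08 and 3.25 in HF cells, and 3.86 on control replicate 2. The difference between LPS+HF and LPS cells was then -0.36 ± 0.11 and was not called (adjusted p = 0.064). As measured, it was called when only the arrays compared were fitted (-0.41 ± 0.09, adjusted p = 0.035), a fit that leaves out the control pair.

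The response of Cd86 to LPS as measured, 1.68 ± 0.97 (adjusted p = 0.29), became -0.03 ± 0.14 after the correction (adjusted p = 0.89). Without control replicate 2, which left the dimmed spot alone, it was 3.30 (adjusted p = 0.0013). HF cells were below control by 0.69 on the log2 scale after the correction (-0.69 ± 0.14, adjusted p = 0.039), with control resting on 1 array, against 0.64 ± 0.97 as measured (adjusted p = 0.71). LPS cells were above HF cells by 0.66 ± 0.11 after the correction (adjusted p = 0.0085), against 1.04 ± 0.97 before it (adjusted p = 0.57). The corrected order of the levels was control and LPS, whose neighbouring values did not separate, then LPS+HF, then HF, and no step between neighbours was called. The nearest genes as measured, Hax1, Fastk and Pdzk1ip1 (r from 0.991 to 0.992), share the dimmed array with Cd86. Over the 7 corrected arrays they were Mid1ip1 (0.993), Tnfaip8 (0.987) and Polr2c (0.984).

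Cd83, a marker of mature dendritic cells and activated lymphocytes that also stabilises surface CD86, separated LPS cells from the rest. It read 4.06 and 3.95 in LPS+HF cells, 2.89 and 2.88 in LPS cells, and 4.64 and 4.47 in HF cells. The control arrays read 2.49, on the spot in the dimmed centre, and 4.71. Leaving that dimmed spot aside, both LPS arrays were the lowest, and the LPS+HF arrays lay between them and the HF arrays without overlap. LPS+HF exceeded LPS cells by 1.12 ± 0.65 as measured (2.18-fold, adjusted p = 0.37).

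With the dimmed Cd83 spot left out and the correction applied, LPS+HF exceeded LPS cells by 1.16 ± 0.10 (adjusted p = 0.002). Cd83 in LPS cells was lower than on control replicate 2 by 1.80 on the log2 scale (-1.80 ± 0.12, adjusted p = 0.00069), against -0.72 ± 0.65 as measured (adjusted p = 0.48). HF and control differed by -0.18 ± 0.12 (adjusted p = 0.35). LPS+HF cells were lower than control by 0.64 (-0.64 ± 0.12, adjusted p = 0.018), where the measured difference was 0.40 ± 0.65 (adjusted p = 0.69). The corrected interaction was 1.33 ± 0.15 (adjusted p = 0.025), against 0.17 ± 0.92 as measured (adjusted p = 0.94).

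The direction of Cd83 under LPS depended on which control array was used. Without control replicate 1 the log2 difference between LPS and control cells was -1.83 ± 0.12 (adjusted p = 0.003), and without control replicate 2, which left the dimmed spot alone, it was 0.39 ± 0.12 (adjusted p = 0.046). The difference between LPS+HF and LPS cells does not use the control level and ran from 1.07 to 1.17 over the 8 fits. It was called in 2 of them, those without a control array, which give the same estimate and error here. Over the 7 corrected arrays the nearest genes were Bnip3 (r = 0.999), a mitophagy receptor, Cox16 (0.997) and Emilin2 (0.997). Over the 8 arrays as measured they were Sipa1l1 (0.991), Cmtm3 (0.988) and Osgepl1 (0.984).

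Cd274 encodes PD-L1, the inhibitory ligand that interferon and NF-kappa B raise on macrophages. Its levels were 1.30 and 0.83 in LPS+HF cells, 2.98 and 3.26 in LPS cells, -0.19 and -0.16 in HF cells, and 0.89 and 0.31 in control cells. Both LPS arrays stood well above the other 6, the LPS+HF and control arrays overlapped, and both HF arrays were the lowest. Cd274 fell by 2.05 on the log2 scale in LPS+HF cells relative to LPS cells (-2.05 ± 0.26, 4.14-fold, adjusted p = 0.016). In LPS cells it was 5.73-fold above control (2.52 ± 0.26, adjusted p = 0.0053) and 9.80-fold above HF cells (3.29 ± 0.26, adjusted p = 0.0018). After the spatial correction the fall was -2.014 ± 0.187 (adjusted p = 0.0016) and the rise over control 2.765 ± 0.187 (adjusted p = 0.00037).

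LPS+HF cells differed from control in Cd274 by 0.47 ± 0.26 (adjusted p = 0.27) and from HF cells by 1.24 ± 0.26 (adjusted p = 0.12). Both were called after the correction, at 0.75 ± 0.19 (adjusted p = 0.033) and 1.32 ± 0.19 (adjusted p = 0.014). The interaction was -1.28 ± 0.37 (adjusted p = 0.3) as measured and -1.44 ± 0.26 (adjusted p = 0.044) after the correction. HF alone gave -0.77 ± 0.26 against control (adjusted p = 0.2). The fall in LPS+HF relative to LPS cells ran from -2.29 to -1.81 over the 8 fits that leave out 1 array. It was called in the 2 without a control array, which give the same estimate and error for this difference. It was called in none without an LPS+HF, LPS or HF array. The rise in LPS cells over control was lost without LPS replicate 1 or LPS replicate 2. The fall was also lost with no filter on dim probes (adjusted p = 0.061), and the rise with array weights (adjusted p = 0.084) or when only the arrays compared were fitted (adjusted p = 0.089). Procr (r = 0.995), the endothelial protein C receptor, Ly6e (0.993), an interferon-inducible surface protein, and Abcc5 (0.993) followed Cd274 most closely.

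Pdcd1lg2 encodes PD-L2 and lies next to Cd274 in the mouse genome. It was dim but well above background on all arrays, at -3.04 and -3.08 in LPS+HF cells, -2.50 and -2.23 in LPS cells, -3.36 and -2.08 in HF cells, and -2.62 and -2.67 in control cells. The LPS+HF arrays lay below both LPS arrays and both control arrays, and the HF arrays spanned all other groups. No difference was called. The widest was that between LPS+HF and LPS cells, at -0.69 ± 0.40 (adjusted p = 0.36, 95% interval -1.660 to 0.276). It was called only when the 2 arrays marked by the quality report were left out, or when only the arrays compared were fitted. For this difference these settings are the same fit. Itga2b (r = 0.921), Ntpcr (0.921) and Zfp69 (0.897) were its nearest genes.

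Slamf7, a self-binding receptor of the SLAM family found on macrophages, plasma cells and natural killer cells, was above background only in cells that had received LPS. Its levels were -3.58 and -3.85 in LPS+HF cells and 0.85 and 0.89 in LPS cells. In HF cells it read -5.47 and -6.57 and in control cells -5.34 and -5.43, and none of these 4 arrays was well above background. The 3 states did not overlap. It was 23.9-fold lower in LPS+HF than in LPS cells (log2 difference -4.58 ± 0.35, adjusted p = 0.008).

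Because its probe was below background in HF and control cells, the Slamf7 rise is a lower bound, taken against the dimmest signal that counted as above background on those arrays. That limit is not the probe's own. The adjusted p-values belong to the fitted differences, which use the readings below background, and do not test these bounds. The probe passed the filter only through the groups given LPS. Slamf7 was at least 42.2-fold higher in LPS than in control cells (adjusted p = 0.001) and at least 35.8-fold higher than in HF cells (adjusted p = 0.00039). It was at least 1.5-fold higher in LPS+HF than in HF cells (adjusted p = 0.046), and at least 1.76-fold higher than in control cells, which was not called (adjusted p = 0.053). That last comparison was called once corrected (adjusted p = 0.017), and in 3 of the 8 fits that leave out 1 array.

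The rise of Slamf7 in LPS cells over control was called in 8 of 8 fits that each leave out 1 array. The fall in LPS+HF relative to LPS cells ran from -4.72 to -4.45 and was called in 4 of 8. It was lost without LPS replicate 1, LPS replicate 2, LPS+HF replicate 1 or LPS+HF replicate 2 (adjusted p up to 0.11). The call of LPS+HF over HF was lost without any of these 4 arrays or HF replicate 2 (adjusted p up to 0.31). Normexp with quantile normalization gave smaller Slamf7 differences: -2.72 between LPS+HF and LPS cells (adjusted p = 0.0038), 3.13 between LPS and control cells (adjusted p = 0.00046), and 0.37 between LPS+HF and HF cells, which was not called (adjusted p = 0.75). The interaction was -3.94 ± 0.49 (adjusted p = 0.097), and -3.91 ± 0.46 after the correction (adjusted p = 0.021). It uses the HF and control levels, both below background, so its size is not measured. The genes most like Slamf7 were Mmp2 (r = 0.994), a matrix metalloproteinase, Smurf1 (0.993), a ubiquitin ligase, and Tent5c (0.990).

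Cd2 is an adhesion receptor known chiefly from T and natural killer cells, where it binds CD48 in mice. Unlike Slamf7, Cd2 was lower in LPS than in control cells. Between LPS+HF and LPS cells only its brighter probe differed opposite to Slamf7. On its brighter probe it read -3.57 and -3.53 in LPS+HF cells, -4.18 and -4.36 in LPS cells, -1.21 and -1.09 in HF cells, and -0.11 and -0.33 in control cells. The 4 groups did not overlap, with control highest, then HF, LPS+HF and LPS. Of the LPS arrays, replicate 2 was not well above background, so the LPS level is measured on 1 of 2 arrays. Cd2 was 16.6-fold lower in LPS than in control cells (-4.05 ± 0.15, adjusted p = 0.00037), 10.1-fold lower in LPS+HF than in control cells (-3.33 ± 0.15, adjusted p = 0.00062) and 5.29-fold lower in LPS+HF than in HF cells (-2.40 ± 0.15, adjusted p = 0.0024). These 3 differences were called in 8 of 8 fits that leave out 1 array. After the spatial correction they were -3.70, -3.02 and -2.32, all called (adjusted p at most 0.00098). Under normexp with quantile normalization they were smaller, at -1.64 (adjusted p = 0.034), -1.37 (adjusted p = 0.089) and -1.12 (adjusted p = 0.38), the last 2 no longer called. When only the arrays compared were fitted, the difference between LPS+HF and control cells was not called (adjusted p = 0.064).

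The rise of Cd2 in LPS+HF over LPS cells was small and near the threshold, at 0.72 ± 0.15 (adjusted p = 0.049). It was called in the 2 fits without a control array, which give the same estimate and error here, and in none without an LPS+HF, LPS or HF array. With the replicate number as a block it was not called. Under normexp with quantile normalization the rise was 0.27 and not called (adjusted p = 0.8). Nor was it called when each probe was tested on its own (adjusted p = 0.052). HF cells were lower than control by 0.93 (-0.93 ± 0.15, adjusted p = 0.062), and by 0.70 after the correction (-0.70 ± 0.17, adjusted p = 0.045). The interaction was 1.65 ± 0.21 (adjusted p = 0.1), and 1.38 ± 0.23 after the correction (adjusted p = 0.038).

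A second Cd2 probe, printed in 10 spots and designed against the same transcript, was not well above background often enough to be tested. Its mean levels were -5.99 in LPS+HF cells, -5.56 in LPS cells, -4.04 in HF cells and -3.52 in control cells. The fall in LPS relative to control cells appeared on it too, at -2.04, but the difference between LPS+HF and LPS cells was -0.43, opposite in sign to that of the brighter probe, with most spots of both groups at background. Cytip (r = 0.995), a regulator of leukocyte adhesion, Abcd2 (0.992), a peroxisomal fatty acid transporter, and Amz1 (0.986) were nearest to Cd2.

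Genes of T cells were looked at beside Cd2, because a culture of BV-2 cells should hold none. Of 12 T cell markers, 7 read above background on all 8 arrays, Cd3e, Cd4, Cd28 and Pdcd1 among them, and 4 (Cd3g, Ctla4, Icos and Cd40lg) on none. Of 36799 genes read without the filter, 18485 had a probe above background on all 8 arrays. Such signal alone does not identify a cell type. The summed linear level of the 12 markers, in units of the array's 75th percentile, was 22.5 to 23.8 in LPS+HF cells and 24.7 to 26.6 in LPS cells. It was 26 to 28 in HF cells and 37 to 38.9 in control cells. In control cells Cd4 on replicate 1 (log2 level 4.51) and Cd28 on replicate 2 (4.11) stood above their levels on the other 7 arrays, while Cd3e and Lck were lower on both control arrays than on the LPS arrays. The sum adds the brightness of different probes and describes the list only. Marker levels here and below were not spatially corrected, and control replicate 1 is the uneven array. Whether any T cells were present, and their part in the Cd2 result, was not tested. In bulk RNA, fewer cells of a type and less RNA per cell cannot be told apart.

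Cd28 and Pdcd1 encode the receptors of CD80 and CD86 and of the PD-1 ligands, and their probes gave signal throughout. Pdcd1 read 1.77 and 2.0 in LPS+HF cells, 1.07 and 1.01 in LPS cells, 2.30 and 2.44 in HF cells, and 2.0 and 2.38 in control cells, so both LPS arrays were the lowest. Cd28 read 2.39 and 2.12 in LPS+HF cells, 2.84 and 3.05 in LPS cells, 2.76 and 2.75 in HF cells, and 2.34 and 4.11 in control cells. The control arrays spanned the rest except LPS+HF replicate 2, which was the lowest.

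Of 13 macrophage and microglia markers, 11 were above background on all 8 arrays, the exceptions being Cx3cr1 on 6 and P2ry12 on 5. Their summed level was 710 to 783 in LPS+HF cells, 884 to 917 in LPS cells, 647 to 652 in HF cells and 889 to 982 in control cells. Among them Csf1r read 4.82 on control replicate 1 and 7.29 on control replicate 2. The counts of markers above background on all 8 arrays were 2 of 5 for B cells (Cd79a and Cd79b), 0 of 3 for natural killer cells, 2 of 5 for endothelial cells (Kdr and Pecam1), 1 of 4 for fibroblasts (Col1a2) and 1 of 3 for astrocytes (Aqp4). With 7 of 12 for T cells, such counts do not by themselves settle the type of the cells.

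Icam1 encodes the ligand of the leukocyte integrin LFA-1 and is a classical NF-kappa B target. Its levels were 1.86 and 1.89 in LPS+HF cells, 1.00 and 0.97 in LPS cells, 0.75 and 0.66 in HF cells, and 1.38 and 0.39 in control cells. The LPS+HF arrays were the highest of the 8 and agreed closely, while the control arrays spanned both the LPS and the HF arrays. LPS+HF exceeded LPS cells by 0.89 ± 0.31 (1.85-fold), which was not called (adjusted p = 0.16). It was called in the 2 fits that left out a control array, which give the same estimate and error for this difference. It was also called with array weights and when only the arrays compared were fitted (adjusted p = 0.0091). The fit without both marked arrays is the same as the latter here. All of these leave out the spread of the control pair or give it less weight. Against control the difference was 0.99 ± 0.31 (adjusted p = 0.11), and against HF cells 1.17 ± 0.31 (adjusted p = 0.23).

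After the spatial correction, which moved the control arrays to 0.73 and 0.33, all 3 of these Icam1 differences were called. LPS+HF exceeded LPS cells by 0.95 ± 0.14 (adjusted p = 0.0056), control by 1.38 ± 0.14 (adjusted p = 0.0024) and HF cells by 1.24 ± 0.14 (adjusted p = 0.0057). The response to LPS alone was 0.43 ± 0.14 (adjusted p = 0.062), and the interaction 0.82 ± 0.20 (adjusted p = 0.075). As measured, the LPS response was 0.10 ± 0.31 (adjusted p = 0.85). It was -0.40 ± 0.10 (adjusted p = 0.025) without control replicate 2 and 0.59 ± 0.10 (adjusted p = 0.02) without control replicate 1. Phlda1 (r = 0.980), Fndc10 (0.979) and Lin37 (0.964) were most like Icam1.

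Vcam1, which binds the integrin VLA-4 and marks inflamed endothelium, was below background. One of its 2 probes read -6.57 and -6.70 in LPS+HF cells, -6.58 and -6.29 in LPS cells, -6.04 and -6.72 in HF cells, and -3.61 and -6.40 in control cells, none of them well above background. The -3.61 belongs to the spot in the dimmed area of control replicate 1. The second probe averaged between -6.55 and -5.82 over the groups and was not well above background on any of the 8 arrays.

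**Figure D4:**
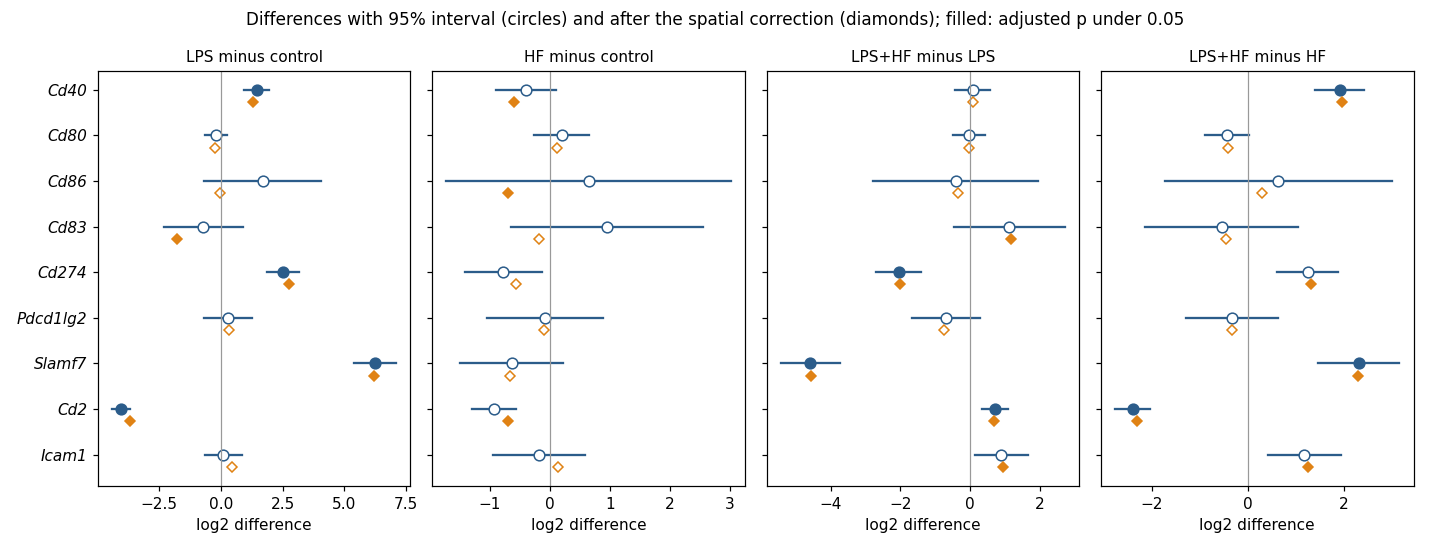
Log2 differences of the 9 tested genes in 4 comparisons, with the 95% interval as measured (circles) and the value after the spatial correction (diamonds); filled marks have an adjusted p under 0.05. Between LPS+HF and LPS cells, Slamf7 (-4.58) and Cd274 (-2.05) are lower and Cd2 (0.72) is higher, and Cd83 and Icam1 are filled only after the correction.

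**Figure D5:**
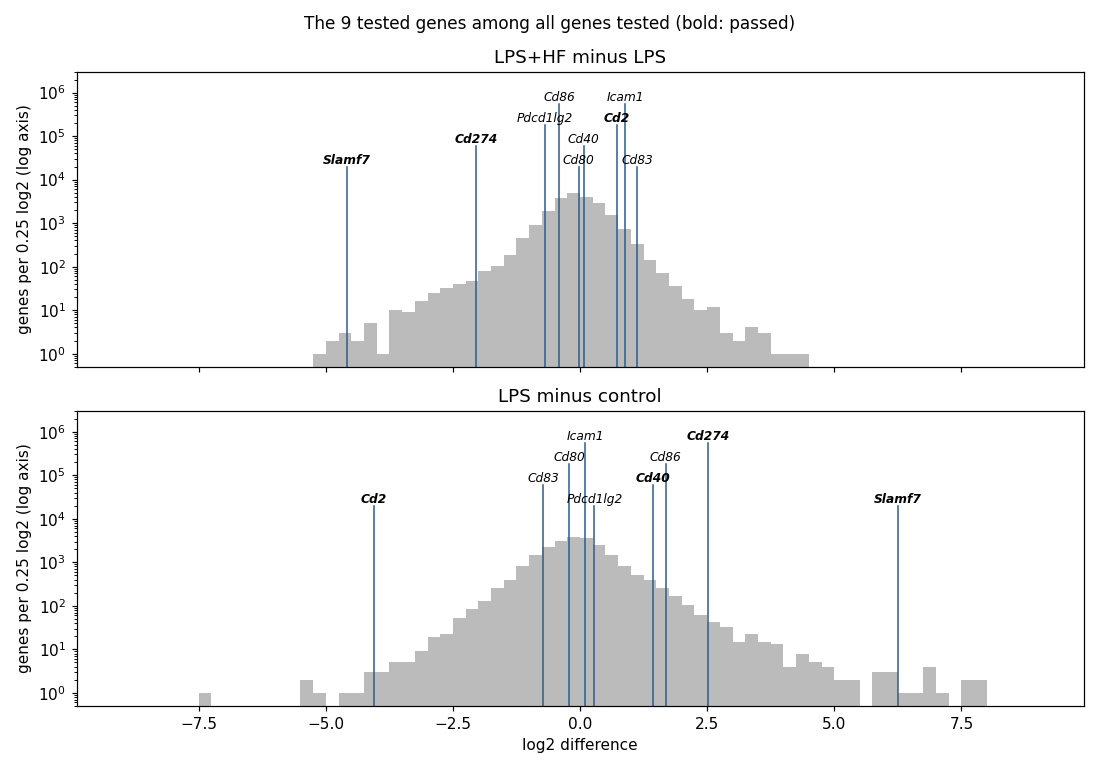
Number of all 22460 tested genes (log axis) per log2 difference, with the tested genes of the group as lines at their own difference and names in bold where called, for LPS+HF minus LPS above and LPS minus control below. Slamf7 lies near the edge of both distributions, at -4.58 and 6.25, and Cd40, Cd80 and Cd86 lie in the centre of the upper one.

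Other molecules of the same pathways were read from lists that complete the families. Over all tested genes, 2.99% were called higher and 3.26% lower in LPS+HF relative to LPS cells (15.2% and 14.2% after the correction), and 4.8% higher and 6.34% lower in LPS relative to control cells (12.9% and 16.6%). Of 14 tested genes among 18 further B7, checkpoint and "don't eat me" molecules, 1 fell and none rose in LPS+HF relative to LPS cells, with a median log2 difference of -0.09 against -0.073 over all genes. The one was Cd200r1, an inhibitory receptor of myeloid cells, at -1.27 ± 0.23 (adjusted p = 0.035). It read -1.194 and -1.635 in LPS+HF cells and -0.232 and -0.051 in LPS cells. In HF cells it read -0.965 and -1.204, below both control arrays (0.377 and -0.031). Over the 14 genes the corrected values gave 3 that rose and 5 that fell. LPS relative to control raised 4 and lowered 2 of the 14 (median 0.23, against -0.081 over all genes), and 5 and 5 after the correction. Among them the inhibitory receptor Pilra rose (1.84, adjusted p = 0.0052), Icosl, the ligand of ICOS, rose (1.42, adjusted p = 0.007), and Havcr2, which encodes TIM-3, fell (-1.45, adjusted p = 0.0069).

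Among 6 tested of 9 co-stimulatory ligands and receptors of the TNF family, 1 rose and 1 fell in LPS+HF relative to LPS cells (median 0.13), and 2 and 1 after the correction. Tnfsf9, which encodes 4-1BB ligand, rose by 0.82 ± 0.15 (adjusted p = 0.037), and Tnfsf15, which encodes TL1A, fell by 1.21 on the log2 scale (-1.21 ± 0.18, adjusted p = 0.023). LPS relative to control raised Tnfsf15 by 3.79 ± 0.18 (adjusted p = 0.00051) and lowered Tnfrsf18, the GITR receptor (-0.65 ± 0.15, adjusted p = 0.05), with a median of -0.32. Tnfrsf18 was not called after the spatial correction (adjusted p = 0.058). Tnfsf15 thus shared with Slamf7 and Cd274 a rise in LPS cells over control and a lower level in LPS+HF than in LPS cells. It read -1.0 and -1.17 in LPS+HF cells, 0.07 and 0.19 in LPS cells, and -3.48 and -3.86 in control cells. In HF cells it read -5.09 and -5.19, not well above background and below both control arrays. Its arrays with HF were thus lower with or without LPS. For Tnfsf9 the HF arrays (2.416 and 2.474) overlapped the control arrays (2.462 and 2.276).

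Of 9 tested among 12 further SLAM family members, CD2 partners and adaptors, 1 fell in LPS+HF relative to LPS cells and none rose (median -0.36). It was Cd84, another self-binding receptor of the family, at -1.42 ± 0.15 (adjusted p = 0.012). After the correction 1 rose and 3 fell. Cd84 read 0.01 and -0.25 in LPS+HF cells, 1.37 and 1.22 in LPS cells, 0.03 and 0.03 in HF cells, and 1.49 and 1.41 in control cells, so the arrays with HF were low with or without LPS. LPS relative to control raised 2 and lowered none (median 0.17), and 3 and 1 after the correction. Raised were Slamf9 by 1.20 ± 0.19 (adjusted p = 0.016) and Slamf8 by 1.78 ± 0.38 (adjusted p = 0.036). The spots of Slamf8 and Slamf9 were among those dimmed on control replicate 1, and with them left out the differences were 2.37 and 1.33 (adjusted p = 0.004 and 0.0017).

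Of 16 tested among 19 integrins and other leukocyte adhesion molecules, none was called in LPS+HF relative to LPS cells (median -0.27), and after the spatial correction 2 rose and 5 fell. The widest differences were those of Icam2, at 0.94 ± 0.26 (adjusted p = 0.095), and Alcam, at -0.74 ± 0.21 (adjusted p = 0.098). LPS relative to control raised 3 and lowered 1 (median 0.28), and 8 and 4 after the correction. The integrin chains Itga5 (1.78, adjusted p = 0.0031) and Itgb2 (1.26, adjusted p = 0.0057) rose, and Icam2, another LFA-1 ligand, fell (-2.67, adjusted p = 0.0048). Itgb2 encodes the beta chain of LFA-1 and Mac-1, both receptors of ICAM-1.

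Of 17 tested among 18 genes that control these molecules (interferon signalling, TRAF adaptors, the alternative NF-kappa B arm, and proteins that stabilise PD-L1 or remove CD86), 1 rose and 1 fell in LPS+HF relative to LPS cells (median -0.09). Traf6, an adaptor of CD40 and Toll-like receptors, rose by 0.83 ± 0.16 (adjusted p = 0.041), and Traf1, an adaptor of TNF receptors, fell by 1.29 (-1.29 ± 0.20, adjusted p = 0.024). After the correction 4 rose and 5 fell. LPS relative to control raised 5 and lowered 1 (median 0.50), and 10 and 2 after the correction. Traf1 rose by 5.21 ± 0.20 (adjusted p = 0.00037), Traf2 by 1.34 ± 0.13 (adjusted p = 0.0049) and Nfkb2 by 1.30 ± 0.14 (adjusted p = 0.0058). Traf6 read -0.254 and -0.349 in LPS+HF cells and -1.19 and -1.069 in LPS cells. In HF cells it read -0.272 and -0.148, above both control arrays (-0.86 and -0.56). For Traf1 the HF arrays (-1.736 and -1.935) overlapped the control arrays (-1.862 and -2.168).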

How the data were processed

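Cy3-labelled RNA of 8 BV-2 samples was measured on 1-colour Agilent arrays whose design names build mm9. The deposited intensity values were made, per the file headers, by Agilent Feature Extraction 11.5.1.1, which subtracted background and corrected trends within an array, with no scaling between arrays. The deposited log2 matrix was made by the authors from these signals; set against the arrays it correlated at 0.99996 or above, after a shift to the 75th percentile and centring of each probe, and its column medians ran from -0.112 to 0.187. Background and saturation marks also came from the deposited scanner files, and no member spot was left out as saturated.

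The log2 of each processed signal, averaged over a probe's spots except marked outliers, was taken minus the 75th percentile of its array. Probes were named through RefSeq transcripts, and the kept probe with the highest mean stood for a gene. Group means were fitted over all 8 arrays with limma 3.58.1 in R 4.3.3 (4 residual and 2.04 prior degrees of freedom), two-sided, and p-values were adjusted by Benjamini-Hochberg over all genes. Python 3.11.15, numpy 2.4.6, pandas 2.3.3 and matplotlib 3.10.9 prepared and drew the data. The SD over genes of the difference between the 2 arrays of a group, on the log2 scale, was 0.344 for LPS+HF, 0.276 for LPS, 0.488 for HF and 0.992 for control. The number of arrays limits the precision.

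The members, lists and alternatives were chosen with earlier results of these data known, the spatial correction with the unevenness of control replicate 1 known. All members are named. Of each list, up to 4 genes called in LPS+HF minus LPS (otherwise the 2 widest) and up to 3 called in LPS minus control are named, and for each member the 3 genes with the highest correlation over arrays, 1 of which is not reported here. Cd28, Pdcd1 and the per-array values of Tnfsf15, Tnfsf9, Cd84, Cd200r1, Traf6, Traf1 and Csf1r were added after their values were seen. The fit was tested on simulated data.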

Additional observations from a re-analysis of the deposited data

How the results depend on the processing

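Of 1426 values of single genes under the alternatives, 1241 kept their direction and side of the threshold, 66 lost a call, 73 gained one and 46 changed sign, 7 of these with a call. The number of the 9 genes called, over the 8 fits that each leave out 1 array, ran from 0 to 5 for LPS+HF minus LPS, 1 to 6 for LPS+HF minus control, 1 to 5 for LPS+HF minus HF, 2 to 7 for LPS minus control, 3 to 6 for LPS minus HF, 0 to 5 for HF minus control and 0 to 5 for the interaction. Where 1 array of a group was left, its spread was taken from the other groups. For LPS+HF minus LPS the 2 fits without a control array are therefore the same fit. The fit without both marked arrays is likewise the same as that of only the arrays compared. The spatial correction called 5 for LPS+HF minus LPS (29.5% of all genes), 6 for LPS+HF minus control (25.1%) and 5 for LPS+HF minus HF (5.1%). It called 3 for HF minus control (10.7%) and 4 for the interaction (3.66%). Without both marked arrays the counts were 7 for LPS+HF minus LPS (32.9% of all genes), 5 for LPS+HF minus control (16.1%) and 1 for the interaction (0.151%). Array weights gave 5 for LPS+HF minus LPS (36.6% of all genes) and 1 for LPS+HF minus control (0.294%). They gave 5 for LPS+HF minus HF (4.43%) and 2 for LPS minus control (0.85%). Fitting only the arrays compared gave 2 for LPS minus control (0.298% of all genes) and 7 for LPS+HF minus LPS (32.9%). It gave 0 for LPS+HF minus control, where no gene was called. With no filter on dim probes, 1 was called in each of the 3 comparisons of LPS+HF. Of all genes, 0.457% were called there against LPS, 0.345% against HF and 0.78% against control. A filter for probes above background on all arrays left out Slamf7 and Cd2. With it, 2 were called in LPS minus control (15.5% of all genes) and 2 in LPS minus HF (17%). In each LPS+HF comparison 1 was called, where 9.13% of all genes were against LPS, 1.26% against HF and 8.14% against control. Normexp with quantile normalization called 0 in LPS+HF minus HF (0.378% of all genes) and LPS+HF minus control (1.48%). The causes of these shifts were not tested, other than the fewer genes or arrays in the fits so named.

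The same replicate numbers did not pair the arrays: their deviations correlated between -0.087 and 0.266. With the replicate number as a block, 2 genes were called in each comparison of LPS+HF. Of all genes, 2.64% were called there against LPS, 0.886% against HF and 2.43% against control. LPS minus control called 4 (7.59% of all genes), LPS minus HF 4 (10.3%) and HF minus control 0 (0.196%). The interaction called 0, where no gene was called. The lost calls were Cd2 in LPS+HF minus LPS and Slamf7 in LPS+HF minus HF. Calls of all genes fell to 592 in LPS+HF minus LPS, against 1404 without the block.

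The spatial correction turned Cd86 in LPS minus control (-0.03), HF minus control (-0.69) and LPS+HF minus control (-0.39) and in the interaction (0.33), Cd83 in HF minus control (-0.18) and LPS+HF minus control (-0.64), and Icam1 in HF minus control (0.14). Over the fits that leave out 1 array or both marked arrays, sign changes gave ranges of -1.83 to 0.39 for Cd83 and -0.40 to 0.59 for Icam1 in LPS minus control, of -0.24 to 2.06 for Cd83, -0.98 to 2.26 for Cd86, -0.68 to 0.31 for Icam1 and -0.72 to 0.58 for Pdcd1lg2 in HF minus control, of -0.004 to 0.148 for Cd40 and -0.185 to 0.127 for Cd80 in LPS+HF minus LPS, of -0.97 to 0.31 for Pdcd1lg2 in LPS+HF minus HF, of -0.71 to 1.51 for Cd83 and -0.35 to 2.89 for Cd86 in LPS+HF minus control, of -0.28 to 0.997 for Pdcd1lg2 in LPS minus HF, and of -0.94 to 1.36 for Cd83, -2.67 to 0.57 for Cd86 and -1.28 to 0.025 for Pdcd1lg2 in the interaction. Under normexp with quantile normalization the values were 0.51 for Cd83 and -0.065 for Pdcd1lg2 in LPS minus control, -0.28 for Cd80 and 0.045 for Slamf7 in HF minus control, -0.025 for Cd40 and 0.019 for Cd80 in LPS+HF minus LPS, and 0.30 for Cd80 and -0.87 for Cd83 in the interaction. Quantile normalization alone gave 0.19 for Pdcd1lg2 and 0.066 for Slamf7 in HF minus control and 0.00 for Cd40 in LPS+HF minus LPS. The mean over both Cd80 probes gave 0.48, 0.39 and 0.44 in LPS+HF minus LPS, HF and control and 0.43 in the interaction.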
